A study of Homo sapiens with 6 samples.

Results

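The genes described here are 57 protein subunits of the oxidative phosphorylation system, chosen by name: the 13 proteins encoded by the mitochondrial genome and 44 nuclear subunits of complexes I to V. Each of the 57 symbols matched 1 of the 60483 gene identifiers in the count tables, and all 57 had enough reads to be tested. RNA came from T98G, an established human glioblastoma cell line, in 3 groups of 2 libraries. NT libraries came from untreated cells. The shSRPK1 libraries came from cells given a pLKO.1 plasmid carrying a short hairpin against SRPK1, a kinase that phosphorylates SR splicing factors, and the oeSRPK1 libraries from cells given full-length SRPK1 in pcDNA3.1, both by transient lipid transfection. No library came from cells given an empty or scrambled plasmid, so transfection itself and the construct it carried cannot be told apart in either comparison with NT. The oeSRPK1 against shSRPK1 comparison sets transfected cells beside transfected cells, but the plasmids differ in more than their effect on SRPK1. The 2 libraries of a group are described as biological replicates, without saying whether they were separate cultures or transfections. Spread between them may be technical, and it is all that the p-values measure.

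The respiratory chain passes electrons from NADH and succinate to oxygen through complexes I, II, III and IV, pumping protons across the inner mitochondrial membrane at complexes I, III and IV, and ATP synthase, complex V, uses that gradient to make ATP. Its subunits are the product of both genomes of the cell: the mitochondrial DNA supplies the hydrophobic core of complexes I, III, IV and V and is copied into long transcripts by a single dedicated polymerase, while the other subunits, and the whole of complex II, are encoded on nuclear chromosomes and imported. Tumour cells differ widely in how far they rely on this chain rather than on glycolysis.

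Counts assigned to genes ranged from 3891549 (oeSRPK1 2) to 22691215 (oeSRPK1 1) per library, and 14732 genes were tested. Levels are given as CPM, counts scaled by the library size after TMM normalisation, and differences as log2 fold changes ± SE. A gene is called higher or lower when its edgeR quasi-likelihood p, adjusted by Benjamini-Hochberg over all tested genes, is under 0.05. SRPK1 was present at 153 and 140.4 CPM in the NT libraries, 113 and 140.1 in shSRPK1, and 190.3 and 168 in oeSRPK1. Its difference from NT passed in neither group, at -0.21 ± 0.14 (edgeR adjusted p = 0.360) in shSRPK1 and 0.29 ± 0.14 (edgeR adjusted p = 0.175) in oeSRPK1, and SRPK1 was higher in oeSRPK1 than in shSRPK1, at 0.50 ± 0.14 (edgeR adjusted p = 0.0377). By this test the measured SRPK1 RNA therefore separates the 2 transfected groups from each other but not either from NT. Both shSRPK1 values lay below both NT values, 1 of them narrowly (140.1 against 140.4), and both oeSRPK1 values lay above. Of all tested genes, 28.7% and 35.9% showed these arrangements. The glioblastoma markers VIM, CD44 and EGFR were abundant, whereas SOX2 and S100B had 0 reads in all 6 libraries. Skeletal muscle transcripts were present in oeSRPK1: the summed level of 21 muscle markers was 71.1 and 74.2 CPM in the NT libraries, 79.1 and 85.6 in shSRPK1, and 387 and 3505 in oeSRPK1, and 11, 11, 9, 4, 2 and 1 of the 21 were at 0 reads in the same order. TNNT1 made up most of the level outside oeSRPK1, and MYH7, a slow muscle myosin, went from 0 reads in both NT libraries to 2399 and 4905 in oeSRPK1. COX6A2 and COX7A1, subunits of complex IV particular to heart and skeletal muscle, had 0 reads in all 6 libraries. The replicates within shSRPK1 differed most, with a mean chi-square per gene of 43.5 between them against 4.29 in NT and 7.76 in oeSRPK1.

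The mitochondrial genes lie close together, and some share bases or have near-identical copies in the nuclear genome, which bears on which gene a read is counted for. On GRCh38 (GENCODE 29), 12 of the 13 are on the + strand of chromosome MT and MT-ND6 alone is on the other. MT-ATP8 (MT:8366-8572) and MT-ATP6 (MT:8527-9207) share 46 bases, and MT-ND4L (MT:10470-10766) and MT-ND4 (MT:10760-12137) share 7. The 2 pairs of ends are printed below 5′ to 3′, with the shared bases in capitals. A read that reaches into capitals overlaps both genes. The counts hold a separate entry, ambiguous, for reads that fit more than 1 gene.
MT-ATP8 end, MT:8507-8572: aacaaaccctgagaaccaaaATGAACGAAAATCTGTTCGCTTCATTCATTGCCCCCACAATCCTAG
MT-ATP6 start, MT:8527-8592: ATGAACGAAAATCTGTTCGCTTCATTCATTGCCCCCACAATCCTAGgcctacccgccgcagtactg
MT-ND4L end, MT:10740-10766: cataacctaaacctactccaATGCTAA
MT-ND4 start, MT:10760-10786: ATGCTAAaactaatcgtcccaacaatt

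MT-CO1, the catalytic core of complex IV, has a copy on chromosome 1, the pseudogene MTCO1P12, which differs at 20 of 1542 aligned bases (98.7% identity). Reads counted for MTCO1P12 came to 22.1 and 21.6 in the NT libraries, 20.5 and 21.4 in shSRPK1, and 17.1 and 19.7 in oeSRPK1, as a percentage of the reads counted for MT-CO1. For MT-ATP6 and its chromosome 1 copy MTATP6P1, which differ at 10 of 681 bases, the corresponding percentages were 10.8 and 10.6 in the NT libraries, 11.5 and 11.6 in shSRPK1, and 12.96 and 12.1 in oeSRPK1. Reads without a unique alignment have an entry of their own that names no gene, 12.0 to 13.1% of entries per library. Whether any of them were also counted for a gene is not given in the sources used here. With the reads of each copy added to its mitochondrial gene, an alternative chosen after seeing the data, the number of members called was unchanged in all 3 comparisons.

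In untreated cells the mitochondrial genes were read far more often than the nuclear ones. Per kilobase of exon, the 13 had a median of 2258 CPM per kb over the NT libraries (303 to 9275), against 23.3 CPM per kb (0.316 to 199) for the 44 nuclear members. MT-CO2, the subunit that takes electrons from cytochrome c, was first, followed by MT-CO3, MT-CO1, MT-ND4 and MT-ND4L, of which the last pair lay within the spread of the NT libraries (5165 and 5159 CPM per kb for MT-ND4, 5376 and 4939 for MT-ND4L). MT-ND6 was the lowest of the 13. Among nuclear members ATP5F1B, the catalytic beta subunit of ATP synthase, was the highest at 199 CPM per kb. Lengths here are of all annotated exons of a gene joined, which understates the level of nuclear genes with long, little-used exons.

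The reads of the 13 mitochondrial genes summed to 4.13 and 4.19% in the NT libraries, 4.36 and 4.62 in shSRPK1, and 2.31 and 2.58 in oeSRPK1, as shares of all gene reads. The mean was 4.16 ± 0.0400% in NT (SD, n = 2), 4.49 ± 0.184% in shSRPK1 (SD, n = 2) and 2.44 ± 0.197% in oeSRPK1 (SD, n = 2). Both oeSRPK1 libraries lay below all 4 others, and both shSRPK1 libraries lay above both NT libraries. The 44 nuclear members together took 0.426 and 0.414% in the NT libraries, 0.397 and 0.347 in shSRPK1, and 0.323 and 0.387 in oeSRPK1, where oeSRPK1 2 lay between the shSRPK1 values. The ratio of mitochondrial to nuclear member reads was 9.70 and 10.1 in the NT libraries, 10.9975 and 13.3 in shSRPK1, and 7.13 and 6.67 in oeSRPK1, so the 3 groups did not overlap and lay in the order oeSRPK1, NT, shSRPK1. With 2 libraries against 2, an exact permutation test cannot give a p below 0.333, so these sums have no test that could pass. In RNA from whole cultures, fewer cells of a kind and less of an RNA per cell cannot be told apart, and a share falls when other RNA rises.

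**Figure D1:**
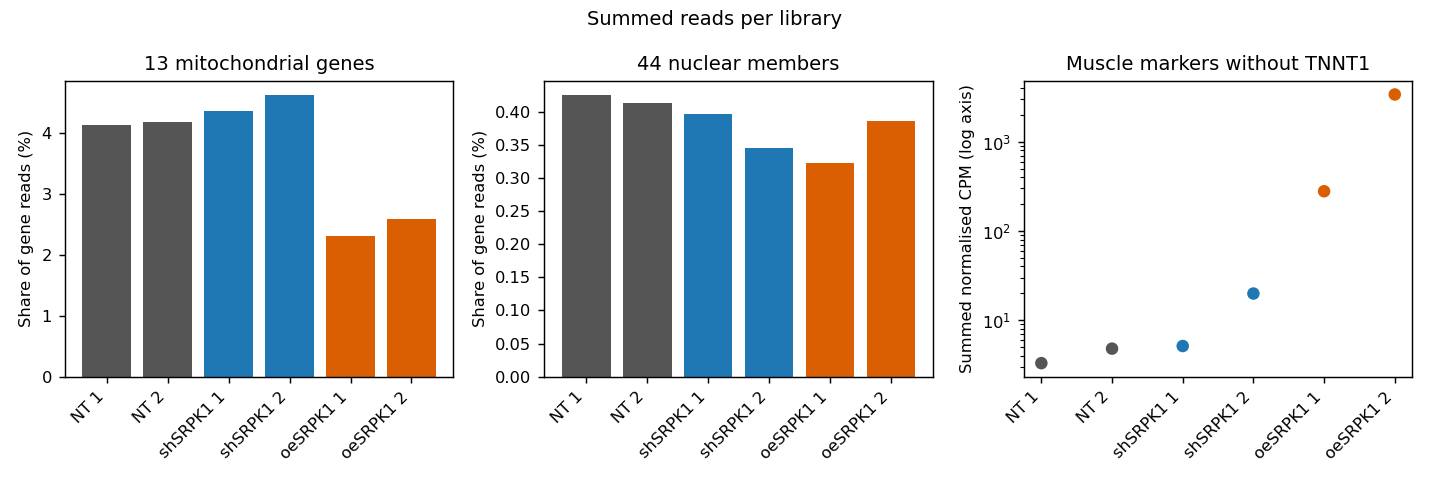
Summed reads of the 13 mitochondrial and 44 nuclear respiratory chain genes as a percentage of gene reads (bars) in each of the 6 libraries. The last panel shows the summed CPM of the skeletal muscle markers without TNNT1 (points, log axis). The ratio of mitochondrial to nuclear reads is not drawn. It is 6.67 and 7.13 in oeSRPK1, 9.70 and 10.1 in NT and 10.9975 and 13.3 in shSRPK1.

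In oeSRPK1, most mitochondrially encoded subunits fell while most nuclear subunits of the same complexes did not pass the test. Of the 13 mitochondrial genes, 9 were called lower than in NT and 0 higher, with a median log2 fold change of -0.69, and of the 44 nuclear members 5 were called lower and 0 higher, with a median of -0.16. Among all 14732 tested genes, 9.45% were called lower and 11.2% higher (20.6% in either direction), with a median of -0.0007. All 13 mitochondrial genes had a negative fold change, and in 11 both oeSRPK1 libraries were below both NT libraries, an arrangement that 34.6% of all tested genes showed (35.9% showed the opposite one). Both libraries of 20 nuclear members were below NT in that way and those of 5 above it. Without either NT or either oeSRPK1 library fewer genes were called, among the 13 and among all tested genes. Without either shSRPK1 library more were called, again among both. The median of the 13 lay between -0.83 and -0.60 whichever library was left out. The muscle markers summed to 387 CPM in oeSRPK1 1 and 3505 CPM in oeSRPK1 2, and the median without oeSRPK1 2 was -0.83. Whether muscle RNA has a part in the lower levels was not tested.

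**Figure D2:**
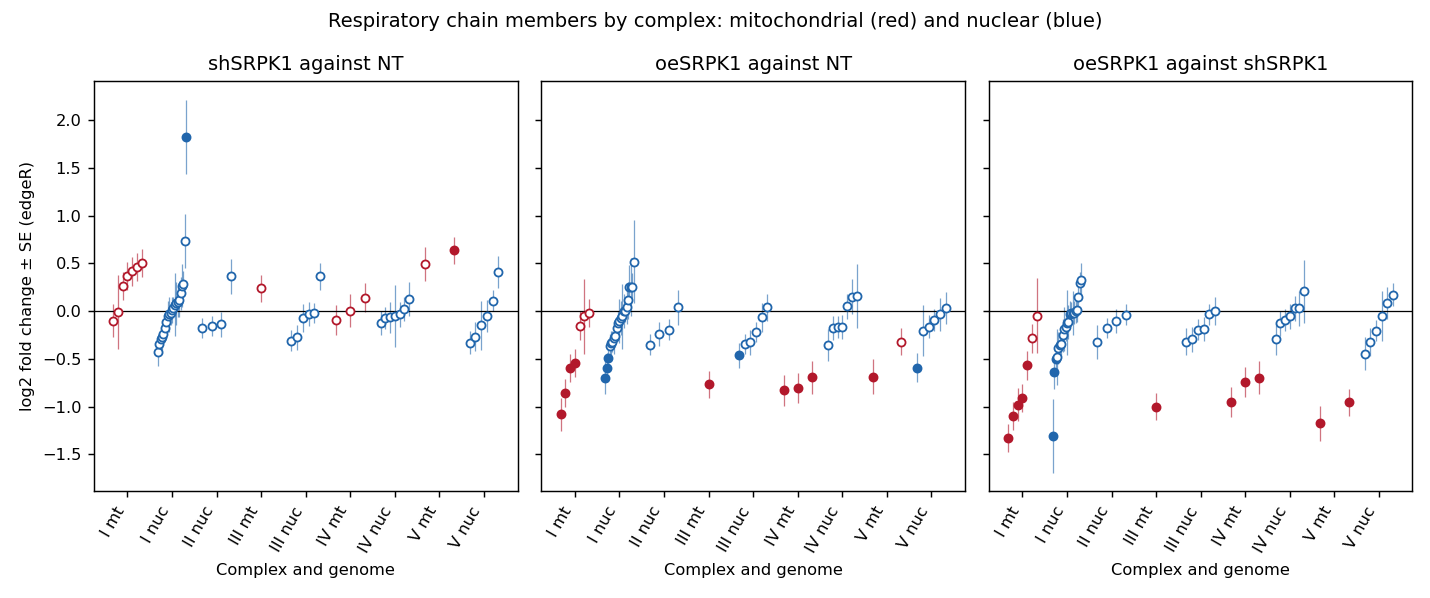
Log2 fold change of each of the 57 genes in the 3 comparisons, by complex, with mitochondrial and nuclear genes as separate points and the genes called by edgeR (adjusted p under 0.05) marked. In oeSRPK1 against NT and against shSRPK1, the mitochondrial genes of complexes I, III, IV and V have lower medians than the nuclear ones, with medians over all complexes of -0.69 and -0.16 against NT.

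Compared with shSRPK1, the oeSRPK1 libraries were lower in 11 of the 13 mitochondrial genes and higher in 0, with a median of -0.95, and lower in 3 of 44 nuclear members and higher in 0, with a median of -0.12. The shares over all tested genes were 11.3% lower, 11.5% higher and 22.8% in either direction. Both oeSRPK1 libraries were below both shSRPK1 libraries for 12 mitochondrial and 14 nuclear members (30.5% of all tested genes) and above for 0 and 2 (31.8%). Fewer genes were called without either NT or either oeSRPK1 library, among the 13 and among all tested genes, and more without either shSRPK1 library. The median of the 13 lay between -1.03 and -0.90 whichever library was left out. The comparison shares the oeSRPK1 libraries with the one against NT.

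In shSRPK1, few members differed from NT by the test. MT-ATP6 was the only mitochondrial gene called higher and NDUFV2 the only nuclear one, and 0 members were called lower by edgeR, DESeq2 or limma-voom on the filtered genes. Unadjusted p was under 0.05 for 6 mitochondrial and 9 nuclear members, in either direction. The medians were 0.26 for the 13 mitochondrial genes, -0.04 for the 44 nuclear members and 0.01 for all tested genes, of which 5.43% were called higher, 3.75% lower and 9.18% either way. For 9 mitochondrial genes both shSRPK1 libraries were above both NT libraries and for 0 both were below, while the nuclear members split into 8 above and 15 below (28.8% and 28.7% of all tested genes). Without either shSRPK1 library, the libraries that differ most from each other, more genes were called, among the members and among all tested genes. The nuclear calls were mostly lower without shSRPK1 1 and mostly higher without shSRPK1 2. When any of the other 4 libraries was left out, fewer were called, among the members and among all tested genes. Whichever library was left out, the median lay between 0.21 and 0.36 for the 13 and between -0.14 and 0.0576 for the 44.

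Complex I, NADH dehydrogenase, has 7 mitochondrial subunits, which form the proton-pumping membrane arm. By edgeR, 4 of the 7 were called lower in oeSRPK1 than in NT and 5 lower than in shSRPK1. The shares called lower over all tested genes were 9.45% and 11.3%. MT-ND5, the most distal pump subunit, was at 2468 and 2409 CPM in the NT libraries, 1976 and 2569 in shSRPK1, and 1056 and 1249.8 in oeSRPK1. Its oeSRPK1 level was 0.473 of NT, a difference of -1.08 ± 0.17 (edgeR adjusted p = 0.00626), and the shSRPK1 and NT values overlapped. MT-ND4L, a small core subunit, was at 1597 and 1467 CPM in the NT libraries, 2005 and 2229 in shSRPK1, and 784 and 902 in oeSRPK1, with no overlap between any 2 groups. Its difference was -0.86 ± 0.15 (edgeR adjusted p = 0.00744) from NT to oeSRPK1 and -1.33 ± 0.15 (edgeR adjusted p = 0.00228) from shSRPK1 to oeSRPK1, the largest of the 13 in that comparison. MT-ND4, another pump subunit, was at 7118 and 7109 CPM in the NT libraries, 9987 and 10136 in shSRPK1, and 4635 and 4755 in oeSRPK1. The 3 groups did not overlap, and the difference between oeSRPK1 and NT was -0.60 ± 0.15 (edgeR adjusted p = 0.0252). In shSRPK1, MT-ND4 and MT-ND4L had fold changes of 0.50 (edgeR adjusted p = 0.0690) and 0.47 (edgeR adjusted p = 0.0844) that did not pass.

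MT-ND3 was at 636 and 706 CPM in the NT libraries, 841 and 889.8 in shSRPK1, and 417 and 508 in oeSRPK1, lower in oeSRPK1 than in NT at -0.54 ± 0.15 (edgeR adjusted p = 0.0361). MT-ND1 and MT-ND2, the subunits encoded nearest the ribosomal RNA genes, were not called between oeSRPK1 and NT. MT-ND1 was at 683 and 779 CPM in the NT libraries, 969 and 785 in shSRPK1, and 725 and 716 in oeSRPK1, and the oeSRPK1 values lay inside the NT range, with a difference of -0.02 ± 0.15 (edgeR adjusted p = 0.938). For MT-ND2 the values were 1319.6 and 1389 CPM in the NT libraries, 1985 and 1625 in shSRPK1, and 1275 and 1162 in oeSRPK1, and its difference from NT was -0.15 ± 0.15 (edgeR adjusted p = 0.512). MT-ND2 was called lower only against shSRPK1, at -0.57 ± 0.15 (edgeR adjusted p = 0.0336). MT-ND6, on the opposite strand, was at 151 and 167 CPM in the NT libraries, 91.98 and 225 in shSRPK1, and 154 and 152 in oeSRPK1. Its shSRPK1 libraries were the lowest and the highest of the 6, and oeSRPK1 against NT was -0.05 ± 0.39 (edgeR adjusted p = 0.940). Whether strand was used in counting is not given, so reads from MT-ND6 and from transcripts of the other strand across it cannot be told apart.

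Ratios between neighbouring genes differed among the libraries as well. Reads of MT-ND6 were 6.11 and 6.93 in the NT libraries, 4.65 and 8.75 in shSRPK1, and 14.6 and 12.2 in oeSRPK1 as a percentage of MT-ND5 reads, so both oeSRPK1 libraries were above the other 4. MT-ND4L reads, as a percentage of MT-ND4 reads, were 22.4 and 20.6 in the NT libraries, 20.1 and 21.99 in shSRPK1, and 16.9 and 18.97 in oeSRPK1, lowest in the oeSRPK1 libraries. These ratios are descriptions and were not tested.

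Complex III has a single mitochondrial subunit, MT-CYB, the cytochrome b that oxidises ubiquinol. It was at 2529 and 2624 CPM in the NT libraries, 3078 and 2993 in shSRPK1, and 1423 and 1610.0 in oeSRPK1, with both oeSRPK1 libraries below the rest. The level in oeSRPK1 was 0.589 of that in NT, a log2 difference of -0.76 ± 0.14 (edgeR adjusted p = 0.00978), and against shSRPK1 it was -1.001 ± 0.14 (edgeR adjusted p = 0.00421).

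The 3 mitochondrial subunits of complex IV, cytochrome c oxidase, were all called lower in oeSRPK1 than in either other group. Over all tested genes 9.45% were called lower against NT and 11.3% against shSRPK1. MT-CO1 was at 9914 and 9602 CPM in the NT libraries, 10254 and 11263 in shSRPK1, and 5315 and 5825 in oeSRPK1. MT-CO2 was at 5819 and 6869 CPM in the NT libraries, 5955 and 6751 in shSRPK1, and 3566 and 4267 in oeSRPK1, and MT-CO3 at 5376 and 5167 CPM in the NT libraries, 4618 and 5277 in shSRPK1, and 2747 and 3176 in oeSRPK1. In each, both oeSRPK1 values were below all 4 others, while shSRPK1 and NT overlapped for MT-CO2 and MT-CO3. Against NT, the oeSRPK1 differences were -0.81 ± 0.16 (edgeR adjusted p = 0.0112) for MT-CO1, -0.70 ± 0.17 (edgeR adjusted p = 0.0274) for MT-CO2 and -0.83 ± 0.16 (edgeR adjusted p = 0.0107) for MT-CO3. In shSRPK1 none of the 3 was called, with fold changes from -0.09 to 0.14.

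The mitochondrial part of complex V consists of MT-ATP6, which forms the proton channel with the rotor ring, and MT-ATP8, a short stator subunit. MT-ATP6 was at 1631 and 1606 CPM in the NT libraries, 2643 and 2393 in shSRPK1, and 1229.7 and 1365 in oeSRPK1. The groups did not overlap: shSRPK1 was 1.56 times NT, a difference of 0.64 ± 0.14 (edgeR adjusted p = 0.0322), and oeSRPK1 was -0.32 ± 0.14 (edgeR adjusted p = 0.146) relative to NT, which did not pass. The call in shSRPK1 was lost in 6 of the alternatives run, with edgeR adjusted p of 0.0629 with replicate numbers entered as a block and 0.310 without NT 1 at the ends of the range. MT-ATP8 was at 412 and 405 CPM in the NT libraries, 571 and 576 in shSRPK1, and 206 and 304 in oeSRPK1, called lower in oeSRPK1 than in NT at -0.69 ± 0.18 (edgeR adjusted p = 0.0332). Reads of MT-ATP8 as a percentage of those of MT-ATP6, the gene it overlaps, were 25.3 and 25.2 in the NT libraries, 21.6 and 24.0 in shSRPK1, and 16.7 and 22.2 in oeSRPK1. The 2 oeSRPK1 libraries differed from each other there by more than NT did.

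**Figure D3:**
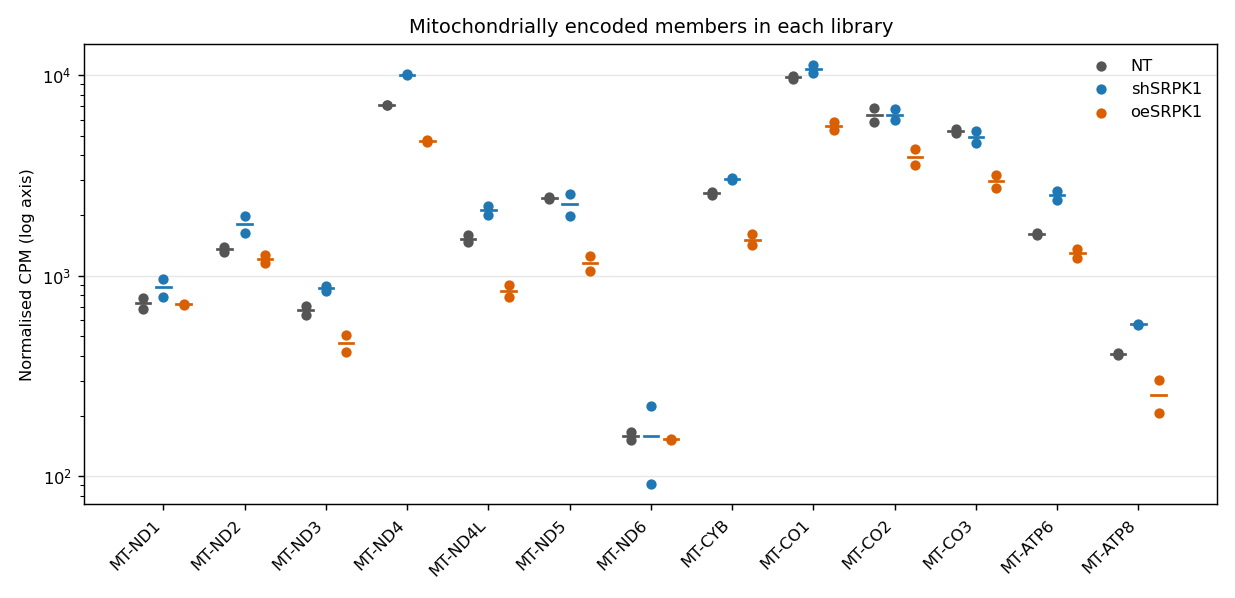
CPM of each of the 13 mitochondrially encoded genes in the 6 libraries (points, log axis), with group means. The oeSRPK1 points lie below the NT points for 11 genes, and MT-ND1 and MT-ND6 are the exceptions.

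Positions of nuclear genes below are whole gene bodies on GRCh38 (GENCODE 29). Among the nuclear complex I subunits, 3 of 21 (14.3%) were called lower in oeSRPK1 than in NT, beside 9.45% of all tested genes, and the median of the 21 was -0.11 against -0.54 for the 7 mitochondrial ones. NDUFB6 (chr9:32552999-32573184), an accessory subunit of the membrane arm, was at 34.7 and 29.02 CPM in the NT libraries, 34.2 and 26.8 in shSRPK1, and 18.7 and 20.9 in oeSRPK1. Both oeSRPK1 values were below all others, and the difference was -0.70 ± 0.17 (edgeR adjusted p = 0.0263) from NT and -0.64 ± 0.17 (edgeR adjusted p = 0.0333) from shSRPK1. NDUFS8 (chr11:68030617-68036644), which carries iron-sulfur clusters in the arm that passes electrons to ubiquinone, was at 83.01 and 79.8 CPM in the NT libraries, 59.1 and 61.97 in shSRPK1, and 47.1 and 62.6 in oeSRPK1. The oeSRPK1 difference from NT was -0.59 ± 0.15 (edgeR adjusted p = 0.0275), and both shSRPK1 libraries were also below NT at -0.43 ± 0.14 (edgeR adjusted p = 0.101), which did not pass. NDUFV1 (chr11:67605653-67612554), which binds NADH and FMN, was at 107 and 103 CPM in the NT libraries, 108 and 102 in shSRPK1, and 65.1 and 84.8 in oeSRPK1. It was lower in oeSRPK1 than in NT at -0.50 ± 0.14 (edgeR adjusted p = 0.0429) and than in shSRPK1 at -0.51 ± 0.14 (edgeR adjusted p = 0.0385).

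NDUFV2 (chr18:9102630-9134345), the iron-sulfur partner of NDUFV1, had only 6 and 16 reads in the NT libraries, 43 and 32 in shSRPK1, and 26 and 6 in oeSRPK1. It was called higher in shSRPK1 than in NT at 1.83 ± 0.39 (edgeR adjusted p = 0.0285) and lower in oeSRPK1 than in shSRPK1 at -1.31 ± 0.39 (edgeR adjusted p = 0.0453). Exons of other annotated genes cover 28.4% of its exon bases. Reads that fit more than 1 gene have a separate entry, ambiguous, that names no gene. Whether reads of NDUFV2 went there was not tested. Without NT 1 the fold change in shSRPK1 was 1.47 (edgeR adjusted p = 0.290), and without NT 2 it was 2.41 (edgeR adjusted p = 0.126). The call against shSRPK1 was lost in DESeq2 (adjusted p = 0.126), in limma-voom with a spread for each group (adjusted p = 0.0547), with a replicate block (edgeR adjusted p = 0.0601), with only the libraries compared (edgeR adjusted p = 0.0657) and without either NT or either oeSRPK1 library (edgeR adjusted p from 0.0728 to 0.353). NDUFA9, NDUFB8 and NDUFC2 had few reads as well, and none of these 3 was called in the test over all 6 libraries. NDUFB3 differed within shSRPK1 more than between groups, at 24.95 and 25.9 CPM in the NT libraries, 36.6 and 16.4 in shSRPK1, and 24.1 and 25.1 in oeSRPK1.

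Complex II, succinate dehydrogenase, belongs to the chain and to the TCA cycle and has no mitochondrially encoded subunit. None of its 4 genes was called in the edgeR test over all 6 libraries, where unadjusted p was under 0.05 for 1 of them, in oeSRPK1 against NT. Of all tested genes, 9.18% were called in shSRPK1 against NT, 20.6% in oeSRPK1 against NT and 22.8% between the transfected groups. Other settings did call some of the 4. SDHD was called lower in oeSRPK1 than in NT with upper-quartile scaling (edgeR adjusted p = 0.0368), with library sizes without the mitochondrial genome (edgeR adjusted p = 0.0431), with no filter on low counts or a stricter one (edgeR adjusted p = 0.0396 and 0.0435) and in limma-voom (adjusted p = 0.0499). With only the NT and oeSRPK1 libraries fitted, SDHD, SDHB and SDHC were all called lower (edgeR adjusted p = 0.00394, 0.0305 and 0.0414), as they were without either shSRPK1 library. SDHA was called higher in shSRPK1 than in NT without shSRPK1 2, at 0.62 (edgeR adjusted p = 0.000179), and oeSRPK1 was then lower than shSRPK1 at -0.63 (edgeR adjusted p = 0.000120), as it was with no filter (edgeR adjusted p = 0.0389). DESeq2 called none of the 4. SDHA (chr5:218241-256700), the flavoprotein, was at 122 and 122 CPM in the NT libraries, 187 and 126 in shSRPK1, and 118 and 134 in oeSRPK1, where 1 shSRPK1 library stood above the other 5, with fold changes of 0.36 (edgeR adjusted p = 0.226) in shSRPK1 and 0.04 (edgeR adjusted p = 0.905) in oeSRPK1 against NT. SDHB (chr1:17018722-17054170), the iron-sulfur subunit, was at 64.9 and 68.01 CPM in the NT libraries, 64.04 and 56.4 in shSRPK1, and 52.4 and 60.7 in oeSRPK1. The membrane anchors SDHC and SDHD were at 152 and 148 CPM in the NT libraries, 133 and 135 in shSRPK1, and 127 and 136 in oeSRPK1 and at 59.3 and 60.2 CPM in the NT libraries, 53.01 and 52.8 in shSRPK1, and 46.2 and 47.6 in oeSRPK1. Both oeSRPK1 values of SDHD lay below all others, at -0.35 ± 0.11 (edgeR adjusted p = 0.0546) against NT. For SDHB and SDHC the oeSRPK1 differences from NT were -0.24 (edgeR adjusted p = 0.216) and -0.19 (edgeR adjusted p = 0.232).

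In complex III, 1 of the 6 nuclear subunits was called in the test over all 6 libraries, lower in oeSRPK1 than in NT. Over all tested genes 9.45% were called lower there. UQCRB, known as the ubiquinone-binding protein, was at 179 and 165 CPM in the NT libraries, 152 and 133 in shSRPK1, and 116 and 135 in oeSRPK1, and oeSRPK1 was lower than NT at -0.46 ± 0.13 (edgeR adjusted p = 0.0404). UQCRC1, a core subunit, was at 123 and 120.2 CPM in the NT libraries, 176 and 136 in shSRPK1, and 122 and 128 in oeSRPK1, with fold changes of 0.36 (edgeR adjusted p = 0.137) for shSRPK1 against NT and -0.32 (edgeR adjusted p = 0.137) for oeSRPK1 against shSRPK1. UQCRC2, UQCRFS1 (the Rieske iron-sulfur protein), UQCRQ and CYC1 (cytochrome c1) had oeSRPK1 differences from NT between -0.34 and -0.07, none called. The median of the 6 was -0.27, beside -0.76 for MT-CYB.

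None of the 7 nuclear complex IV members was called in the edgeR test over all 6 libraries, and 0 had an unadjusted p under 0.05 there. Of all tested genes, 9.18% were called in shSRPK1 against NT, 20.6% in oeSRPK1 against NT and 22.8% between the transfected groups. NDUFA4 was called lower in oeSRPK1 than in NT with no filter on low counts (edgeR adjusted p = 0.0283), with only the libraries compared (edgeR adjusted p = 0.0108), without shSRPK1 1 or shSRPK1 2 (edgeR adjusted p = 0.00828 and 0.00749) and in limma-voom with a spread for each group (adjusted p = 0.0204). Without shSRPK1 2 it was also called lower against shSRPK1 (edgeR adjusted p = 0.00906). For oeSRPK1 against NT their median was -0.17 beside -0.81 for the 3 mitochondrial ones. COX4I1, the largest nuclear subunit, was at 234 and 231 CPM in the NT libraries, 227 and 215 in shSRPK1, and 199 and 215 in oeSRPK1. NDUFA4, first described in complex I and since assigned to complex IV, was at 112 and 112 CPM in the NT libraries, 118 and 97.4 in shSRPK1, and 75.3 and 102 in oeSRPK1, with an oeSRPK1 difference from NT of -0.36 ± 0.16 (edgeR adjusted p = 0.164). COX5A, which sits on the matrix side, was at 47.96 and 50.1 CPM in the NT libraries, 57.02 and 37.6 in shSRPK1, and 38.7 and 74.4 in oeSRPK1, so the 2 oeSRPK1 libraries were the second lowest and the highest of the 6. For COX6A1, the isoform of non-muscle tissue, shSRPK1 against NT was 0.12 (edgeR adjusted p = 0.694). COX5B, COX6C and COX7C had oeSRPK1 differences from NT of 0.05, -0.17 and -0.18.

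In complex V, 1 of the 6 nuclear members was called in the test over all 6 libraries, lower in oeSRPK1 than in NT. Over all tested genes 9.45% were called lower there. The member called was ATP5F1A (chr18:46080248-46104334), the alpha subunit of the catalytic head. It was at 266 and 252 CPM in the NT libraries, 243 and 186 in shSRPK1, and 163 and 180.2 in oeSRPK1, and oeSRPK1 was lower than NT at -0.59 ± 0.15 (edgeR adjusted p = 0.0291), with no overlap. Its partner ATP5F1B was at 462 and 462 CPM in the NT libraries, 482 and 409.7 in shSRPK1, and 399 and 546 in oeSRPK1, where the oeSRPK1 libraries were the lowest and the highest of the 6, at 0.03 ± 0.17 (edgeR adjusted p = 0.918). ATP5PO, a stalk subunit, had fold changes of 0.41 (edgeR adjusted p = 0.147) in shSRPK1 against NT and -0.44 (edgeR adjusted p = 0.0931) in oeSRPK1 against shSRPK1. The nuclear median for oeSRPK1 against NT was -0.13, beside -0.50 for MT-ATP6 and MT-ATP8. The calls of NDUFB6, NDUFS8, NDUFV1, UQCRB and ATP5F1A against NT were each lost without NT 1, without NT 2 and without oeSRPK1 1. Most nuclear differences were small: 42, 40 and 41 of the 44 had an absolute log2 fold change under 0.5 when shSRPK1 and then oeSRPK1 was set against NT, and when the transfected groups were set against each other.

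**Figure D4:**
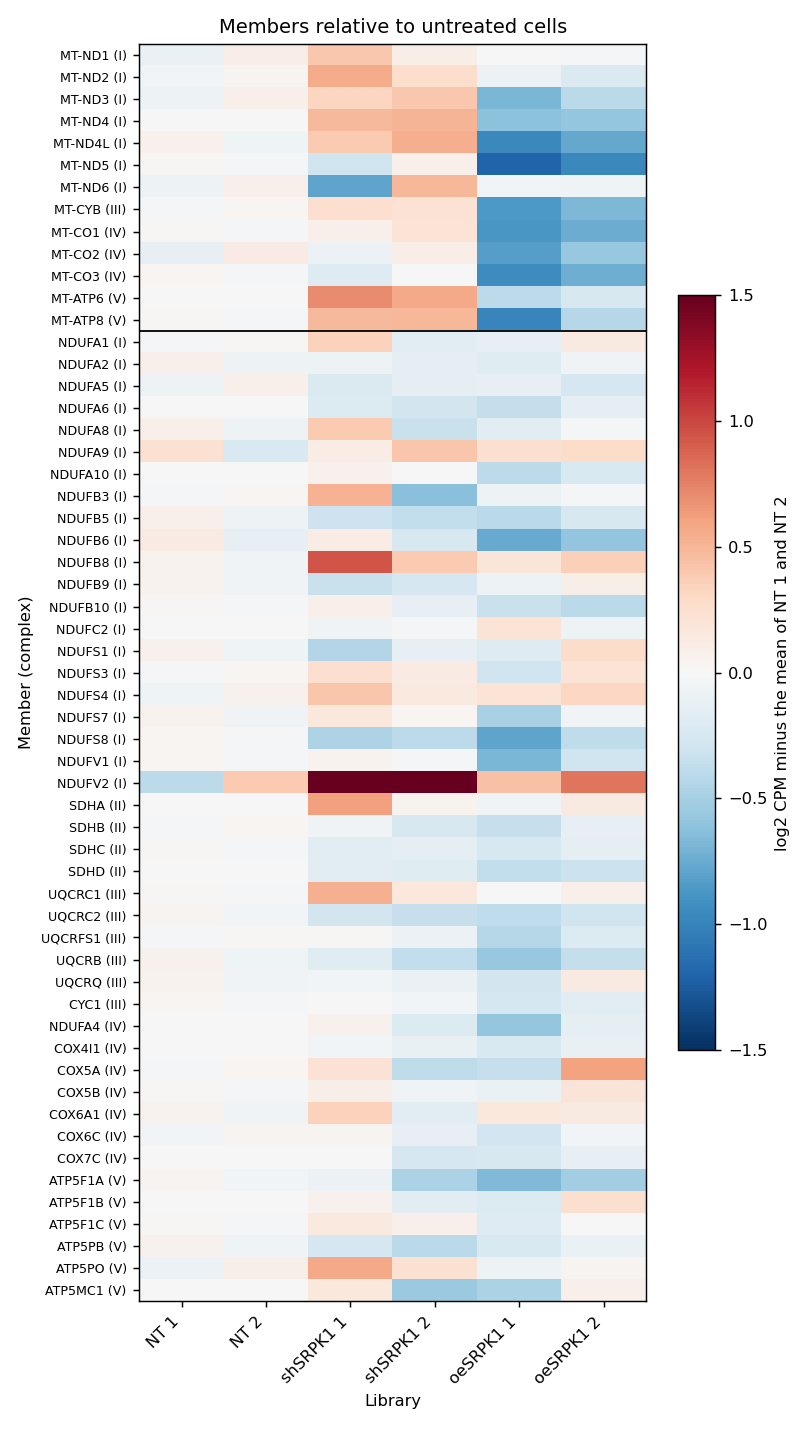
Log2 level of each of the 57 genes in each library relative to the NT mean, with genes grouped by complex and genome and the colour scale limited at its ends. In oeSRPK1 the library medians are -0.83 and -0.57 for the 13 mitochondrial genes against -0.24 and -0.05 for the 44 nuclear ones. Single rows depart from this: MT-ND1 and MT-ND6 lie close to the NT mean, and nuclear rows such as NDUFB6 lie below them.

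Genes around the chain were read from lists of pathway genes, beside the shares of all tested genes called in either direction: 9.18% in shSRPK1 against NT, 20.6% in oeSRPK1 against NT and 22.8% between the transfected groups. Of the 34 other structural subunits tested, 0 were called by edgeR in any of the 3 comparisons, with unadjusted p under 0.05 for 2 in shSRPK1 against NT, 7 when oeSRPK1 was set against NT and 4 when it was set against shSRPK1. Of 48 assembly factors tested, 5 were lower and 2 higher in oeSRPK1 against NT, and 6 lower and 2 higher against shSRPK1, so that 14.6% and 16.7% were called, below the shares over all genes. UQCC2, which is needed to build complex III, was at 53.5 and 56.4 CPM in the NT libraries, 44.9 and 45.7 in shSRPK1, and 22.5 and 30.5 in oeSRPK1, lower in oeSRPK1 than in NT at -1.09 ± 0.16 (edgeR adjusted p = 0.00401). COX15, which makes haem a for complex IV, was lower at -0.68 (edgeR adjusted p = 0.00667), and COX20, a chaperone of MT-CO2, was higher at 0.88 (edgeR adjusted p = 0.00261). In shSRPK1 against NT 1 was lower and 1 higher, COA7 and SCO2, the latter a copper chaperone of complex IV, at -0.89 (edgeR adjusted p = 0.00983) and 0.80 (edgeR adjusted p = 0.0271).

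Of 18 genes for the upkeep and transcription of mitochondrial DNA, 3 were lower and 1 higher in oeSRPK1 than in NT, with the same counts against shSRPK1. The 22.2% called in each was close to the share over all genes. POLRMT, the polymerase that transcribes the mitochondrial genome, was at 41.8 and 44.6 CPM in the NT libraries, 57.8 and 50.02 in shSRPK1, and 23.2 and 25.1 in oeSRPK1. Both oeSRPK1 values lay below all others, a difference of -0.85 ± 0.13 (edgeR adjusted p = 0.00561) from NT and -1.17 ± 0.13 (edgeR adjusted p = 0.00237) from shSRPK1. MTERF2, a protein that binds mitochondrial DNA, was at 20.2 and 17.9 CPM in the NT libraries, 15.5 and 16.9 in shSRPK1, and 6.66 and 6.98 in oeSRPK1 and was lower in oeSRPK1 than in NT at -1.49 ± 0.17 (edgeR adjusted p = 0.00169), whereas MTERF1 was higher at 0.58 (edgeR adjusted p = 0.0413). In shSRPK1 3 of the 18 were lower and 0 higher than in NT: PRIMPOL, TWNK (the replicative helicase) and RNASEH1, at -0.92 (edgeR adjusted p = 0.0232), -0.82 (edgeR adjusted p = 0.0306) and -0.59 (edgeR adjusted p = 0.0446).

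Among 23 genes of mitochondrial RNA processing and stability, 1 was higher and 3 lower in shSRPK1 than in NT, and 1 higher and 1 lower in oeSRPK1, which is 17.4% and 8.70% of the list. PNPT1, the polynucleotide phosphorylase of the RNA-degrading complex, was at 45.1 and 43.4 CPM in the NT libraries, 97.3 and 177 in shSRPK1, and 148 and 138 in oeSRPK1 and was called higher in both transfected groups, at 1.63 ± 0.26 (edgeR adjusted p = 0.0186) in shSRPK1 and 1.69 ± 0.26 (edgeR adjusted p = 0.00730) in oeSRPK1. Those 2 comparisons share the NT libraries. TRMT10C, a subunit of the mitochondrial RNase P, and FASTKD5, which takes part in processing mitochondrial transcripts, were lower in shSRPK1 than in NT at -0.82 (edgeR adjusted p = 0.0203) and -0.82 (edgeR adjusted p = 0.0203), and both were higher in oeSRPK1 than in shSRPK1, at 0.85 (edgeR adjusted p = 0.00904) and 1.02 (edgeR adjusted p = 0.00513). Against shSRPK1, 2 of the 23 were higher in oeSRPK1 and 2 lower (17.4% of the list).

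The mitochondrial ribosome, which translates the 13 proteins, had 12 of 78 tested genes lower and 1 higher in oeSRPK1 than in NT, with a median of -0.11. The 16.7% called in either direction is below the 20.6% of all genes, and the 15.4% called lower is above the 9.45%. MRPL42, MRPS27 and MRPS14 were lower at -0.69 (edgeR adjusted p = 0.00738), -0.65 (edgeR adjusted p = 0.0150) and -0.54 (edgeR adjusted p = 0.0178). In shSRPK1 4 were lower than in NT and 0 higher, and between oeSRPK1 and shSRPK1 10 were lower and 4 higher (17.9% called). Of 19 TCA cycle genes, 6 (31.6%) were lower and 0 higher in oeSRPK1 than in NT, among them SUCLG2, FH and CS, citrate synthase, at -0.71 (edgeR adjusted p = 0.00912), -0.67 (edgeR adjusted p = 0.0188) and -0.56 (edgeR adjusted p = 0.0250). Against shSRPK1, 3 were lower and 1 higher in oeSRPK1, and in shSRPK1 SUCLA2 alone was lower than in NT at -0.50 (edgeR adjusted p = 0.0418). Of 17 genes for ubiquinone, cytochrome c and other electron carriers, 5 (29.4%) were lower in oeSRPK1 than in NT, with ETFDH first at -0.96 (edgeR adjusted p = 0.00916). In that list 2 were lower against shSRPK1, 1 (ETFDH) was lower in shSRPK1 than in NT, and 0 were higher in any comparison.

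Of 11 tested regulators of respiratory genes, 1 was higher and 1 lower in oeSRPK1 than in NT, 1 was lower in shSRPK1 than in NT, and 1 was higher when oeSRPK1 was set against shSRPK1. PPARGC1A, the coactivator PGC-1alpha, was at 2.04 and 2.05 CPM in the NT libraries, 4.15 and 2.96 in shSRPK1, and 6.03 and 7.76 in oeSRPK1 and was higher in oeSRPK1 than in NT at 1.70 ± 0.29 (edgeR adjusted p = 0.00744). Its relative PPARGC1B was at 9.42 and 7.98 CPM in the NT libraries, 5.66 and 6.22 in shSRPK1, and 3.28 and 5.17 in oeSRPK1 and lower at -1.16 ± 0.26 (edgeR adjusted p = 0.0200). PPRC1, another member of that family, was lower in shSRPK1 than in NT at -0.54 (edgeR adjusted p = 0.0294) and higher in oeSRPK1 than in shSRPK1 at 0.42 (edgeR adjusted p = 0.0376). Skeletal muscle expresses PPARGC1A, and the part of the muscle transcripts in its level was not tested. The mitochondrial ribosomal RNAs MT-RNR1 and MT-RNR2 were not called in any comparison. Libraries were made from poly(A) RNA and the names of the count tables carry that of a filter for ribosomal RNA reads, so these 2 are not read as abundance. Of 11 tested nuclear copies of mitochondrial genes, 1 was higher in shSRPK1 than in NT, and 2 and 4 were lower in oeSRPK1 against NT and shSRPK1, among them MTCO1P12 at -1.06 (edgeR adjusted p = 0.00555) against NT. NDUFA4L2 was the 1 tissue or hypoxia isoform of 7 with enough reads to be tested, and it was not called.

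RefSeq promoters (GRCh38.p14, from 250 bases before to 50 after the start of a gene) were found for 35 of the 44 nuclear members. They were searched on both strands for short motifs of factors known for respiratory genes. The NRF1 core GCGCATGC was in 8 of the 35 (22.9%) and in 3.27% of 27305 promoters, and the full NRF1 palindrome, which contains it, was in 3 (8.57%) and 1.36%. The GABPA motif CCGGAAGT was in 4 (11.4%) and 4.44%, and the YY1 motif AAGATGGC in 8 (22.9%) and 3.03%. SDHD, the complex II anchor whose oeSRPK1 values lay below all others, holds the full NRF1 palindrome and the GABPA motif, in capitals below. NDUFB6, called lower in oeSRPK1 against both groups, holds none of these letters in its window. A match is a run of letters, not a measured site.
SDHD, chr11:112086623-112086922, + strand: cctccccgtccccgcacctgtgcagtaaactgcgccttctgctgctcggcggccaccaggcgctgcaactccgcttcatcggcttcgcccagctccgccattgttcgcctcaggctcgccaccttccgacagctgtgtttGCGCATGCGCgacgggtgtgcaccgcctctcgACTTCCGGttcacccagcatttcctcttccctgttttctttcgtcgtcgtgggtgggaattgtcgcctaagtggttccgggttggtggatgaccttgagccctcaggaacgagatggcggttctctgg
NDUFB6, chr9:32573110-32573409, - strand: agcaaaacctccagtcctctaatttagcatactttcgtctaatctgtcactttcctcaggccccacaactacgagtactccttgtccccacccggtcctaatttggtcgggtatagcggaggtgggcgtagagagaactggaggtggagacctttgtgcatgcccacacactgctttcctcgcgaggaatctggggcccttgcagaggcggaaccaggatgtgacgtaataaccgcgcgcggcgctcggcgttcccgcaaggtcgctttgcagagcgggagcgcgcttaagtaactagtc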

How the data were processed

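Whole-number counts per gene were deposited by the authors, 1 table per library. Per the labels, poly(A) RNA of integrity above 8 was sequenced as 101 bp pairs. The submitters' processing notes name FastQC, Trimmomatic, STAR 2.5.3 and hg38. The counting tool, annotation and strand setting are not given in the sources used here. Entries that name no gene (no feature, ambiguous, not unique) were left out of library sizes and tests: 8.13 to 11.1%, 3.04 to 3.37% and 12.0 to 13.1% of entries per library. At 3 counts, the level is 0.135 to 0.776 CPM depending on the library.

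Symbols, lengths and coordinates came from GENCODE 29 and the gene name table. Counts were tested with edgeR 4.0.16 (R 4.3.3; TMM; filterByExpr with a minimum count of 10 and total of 15; robust quasi-likelihood fit over all 6 libraries, group only). Checks on simulated data preceded it. Alternatives were other scalings, filters, DESeq2 1.42.0, limma 3.58.1 voom, only the libraries compared, a replicate block and leaving out each library. Counts limit precision, and SE and p cover these libraries only.

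The members and gene lists were chosen with earlier results of these data known, so no p is adjusted over a list alone. The text names all mitochondrial members, complex II, every called nuclear member, the member of each complex with the largest absolute fold change, and up to 4 called genes of each other list by p. UQCRC2, UQCRFS1, UQCRQ, CYC1, COX4I1, COX5A, COX5B, COX6C, COX7C, ATP5F1B, NDUFA9, NDUFB8, NDUFC2 and NDUFB3 were added after their values were seen. Of the marker lists, glioblastoma had 1 higher and 0 lower of 7 tested genes in shSRPK1 against NT, 2 and 2 in oeSRPK1 against NT and 2 and 1 in oeSRPK1 against shSRPK1. Skeletal muscle had 0, 2 and 1 of 15 higher and 0 lower, neuron markers 0 and 0, 0 and 1, and 1 and 1 of 3, and no blood marker had enough reads to be tested.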

Additional observations from a re-analysis of the deposited data

Results flagged for a closer look

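The median over the 13 mitochondrial genes lay on opposite sides of NT in the 2 transfected groups. Both shSRPK1 libraries were above the NT mean in that median (0.33 and 0.26 on the log2 scale) and both oeSRPK1 libraries below it (-0.83 and -0.57). Not every gene did so. In shSRPK1 against NT, 3 of the 13 had a negative fold change, 4 overlapped NT and 1 was called higher. Over all tested genes, 5.43% were called higher there, and 28.8% and 28.7% lay wholly above and wholly below NT. In oeSRPK1, 2 of the 13 overlapped NT, where 35.9% and 34.6% of all tested genes lay wholly above and wholly below. The direct comparison in edgeR called 11 of the 13 lower in oeSRPK1 than in shSRPK1, beside 11.3% of all tested genes. The arrangement of medians on either side of NT was not itself tested.

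Skeletal muscle markers other than TNNT1, which are no members of the respiratory chain, summed to 3.30 and 4.80 CPM in NT and to 5.14 CPM in shSRPK1 1. The sums were 19.9 CPM in shSRPK1 2, 279 CPM in oeSRPK1 1 and 3385 CPM in oeSRPK1 2, all above the untreated libraries.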

How the results depend on the processing

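Both oeSRPK1 counts of mitochondrial genes called lower stayed within 1.5 times under every other scaling, filter, tool and block: 8 to 10 against NT and 8 to 11 against shSRPK1. The other counts moved. In shSRPK1 against NT, mitochondrial genes called higher were 5 with no filter on low counts, 3 in DESeq2, 2 in limma-voom, 0 with only the libraries compared and 0 with the replicate block. Over all tested genes, 1541, 858, 832, 89 and 624 were called higher in the same order, beside 800 with the settings used above. Nuclear members called higher were 0 with the stricter filter and 0 with only the libraries compared, and 1 was called lower with no filter. In oeSRPK1 against NT, nuclear members called lower were 9 with no filter, 15 in limma-voom when each group had its own spread, 17 with only the libraries compared and 3 with the replicate block. Over all tested genes, 2179 of 28529, 3027 of 14732, 3241 of 14322 and 1172 of 14732 were called lower in the same order. The settings used above called 1392 of 14732 lower. Against shSRPK1, nuclear members called lower were 10, 0 and 1 with no filter, only the libraries compared and the block. Over all tested genes, 2615 of 28529, 746 of 14413 and 1395 of 14732 were, beside 1671 of 14732 with the settings used above. Samples of the same number showed no shared deviation over all tested genes (correlations 0.01, -0.02 and 0.02). Counting noise also lowers such a correlation, so it cannot show whether the number pairs them.

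With 1 library left out, in shSRPK1 against NT the counts ranged from 0 to 6 (mitochondrial higher), 0 to 1 (mitochondrial lower), 0 to 9 (nuclear higher) and 0 to 8 (nuclear lower), and the medians from 0.21 to 0.36 (mitochondrial) and -0.14 to 0.0576 (nuclear). In oeSRPK1 against NT they ranged from 0 to 10 (mitochondrial lower) and 0 to 17 (nuclear lower), with medians of -0.83 to -0.60 and -0.24 to -0.08. In oeSRPK1 against shSRPK1 they ranged from 0 to 12 (mitochondrial lower), 0 to 1 (mitochondrial higher), 0 to 18 (nuclear lower) and 0 to 1 (nuclear higher), with medians of -1.03 to -0.90 and -0.25 to -0.06. The number of genes called over all tested genes also moved in each of these fits. Where a group is left with 1 library, it is assumed to vary like the others. MT-ND6 reversed: it was 0.50 without shSRPK1 1 and -0.79 without shSRPK1 2 in shSRPK1 against NT, and -0.59 and 0.69 in oeSRPK1 against shSRPK1. NDUFB3 reversed too, at -0.64 and 0.52, and 0.54 and -0.62, in the same order. The cause was not tested.

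The mitochondrial share was 4.38% in NT and 4.74% in shSRPK1 of nuclear gene reads, and 3.15%, 3.31% and 1.85% of all counted reads in NT, shSRPK1 and oeSRPK1, through the denominator alone. With NDUFA4 placed in complex I, the complex IV nuclear median for oeSRPK1 against NT was -0.0585. Over all genes, oeSRPK1 against NT had 1644 higher and 1392 lower, but 1459 and 1616 with upper-quartile scaling and 1517 and 1521 with library sizes without the mitochondrial genome. Depth limits NDUFV2 most.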

Other observations

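Genes usually expressed by different tissues gave mixed readings. CHI3L1, a secreted glycoprotein of glioma and inflamed tissue, was at 10.2 and 15.2 CPM in the NT libraries, 8.99 and 9.47 in shSRPK1, and 2.61 and 2.33 in oeSRPK1 and was lower in oeSRPK1 than in NT at -2.33 ± 0.27 (edgeR adjusted p = 0.00171). EGFR was at 304 and 318 CPM in the NT libraries, 522 and 468 in shSRPK1, and 1213 and 957 in oeSRPK1 and higher at 1.80 ± 0.16 (edgeR adjusted p = 0.000596). SNAP25, a synaptic vesicle fusion protein, was at 14.3 and 14.9 CPM in the NT libraries, 16.4 and 17.2 in shSRPK1, and 4.90 and 4.91 in oeSRPK1 and lower at -1.57 ± 0.17 (edgeR adjusted p = 0.00149). Of the other glioblastoma markers, PDGFRA was lower and OLIG2 higher in oeSRPK1 than in NT, at -1.46 ± 0.34 (edgeR adjusted p = 0.0218) and 1.59 ± 0.39 (edgeR adjusted p = 0.0262). The other 2 tested neuron markers had positive fold changes against NT that did not pass, and SYT1, a calcium sensor of synaptic vesicles, was higher in oeSRPK1 than in shSRPK1 at 2.24 ± 0.39 (edgeR adjusted p = 0.00824).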
